A study of Mus musculus with 20 samples.

Results

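The 10 genes examined here were the immune checkpoint ligands Cd80, Cd86, Cd274, Pdcd1lg2, Cd276, Pvr, Nectin2, Icosl, Lgals9 and Cd47, out of 35226 genes counted in 20 mouse tumors. They were listed by gene symbol, and Cd80 heads the list because its mRNA was already known to be higher after cisplatin in these same tumors. All 10 genes were among the 16665 that passed the filter on low counts. The tumors grew from LLC1, a Lewis lung carcinoma cell line, under the skin of the flank of male C57BL6/J mice aged 8 to 10 weeks, a host with an intact immune system. Mice were assigned at random, once the tumors had reached a set volume, to vehicle, KW6002, cisplatin, or cisplatin and KW6002 together (cotreatment). Each group had 5 tumors. KW6002, or istradefylline, is an adenosine receptor antagonist, and cisplatin is a platinum drug that crosslinks DNA. All 20 tumors came from 1 cell line, and the labels do not tie each tumor to a mouse. The labels write the agent of vehicle replicate 1 in another form than that of the other 4 vehicle tumors.

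Checkpoint ligands are surface or secreted proteins that raise or restrain the activity of T cells, natural killer cells and macrophages. CD80 and CD86 on antigen-presenting cells bind CD28, which costimulates T cells, and CTLA-4, which inhibits them, and ICOSL binds ICOS. PD-L1, encoded by Cd274, and PD-L2, encoded by Pdcd1lg2, bind the inhibitory receptor PD-1, and CD80 can also bind PD-L1 on the same cell. PVR (CD155) and nectin-2 (CD112) bind the activating receptor CD226 and the inhibitory receptor TIGIT, nectin-2 also binds the inhibitory receptor PVRIG, galectin-9 binds TIM-3 (Havcr2), and CD47 gives a signal against phagocytosis through SIRP alpha. Interferon gamma, acting through JAK kinases and then IRF1, is a known inducer of Cd274 transcription.

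Cd80 separated the tumors by cisplatin with no overlap, and none of the other 9 ligands was called higher in the fit of all 20 tumors. The Cd80 mRNA level was 2.52-fold higher in cotreated than in KW6002-treated tumors, a comparison that shares no tumor with cisplatin against vehicle. Cd80 was chosen with earlier results of these data known, so this is not an independent test. Of the other 9 ligands, 4 were called lower after cotreatment than after KW6002 alone (Nectin2, Cd274, Pdcd1lg2 and Cd86), in a comparison that called 10.7% of all genes lower and 12.6% higher. The lower Nectin2 was called in each of the 3 comparisons of a cisplatin-treated with a cisplatin-free group that were made, and the other 3 calls depended on single tumors or on the set of libraries. Cd276, Pvr, Icosl, Lgals9 and Cd47 were not called in any comparison in the fit of all 20 tumors.

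The RefSeq sequence (GRCm38.p6) of the 250 bases before the start of transcription is shown for Cd80, the ligand that was higher, and for Nectin2 and Cd274, ligands that were lower. The windows are chr16:38458683-38458932 on the plus strand, chr7:19749574-19749823 on the minus strand and chr19:29367188-29367437 on the plus strand, each 5′ to 3′ along its gene. The RefSeq starts of Cd80 and Nectin2 lie inside the longer gene spans of the GENCODE annotation. Capitals mark a match to 1 of the 5 motifs searched.
Cd80: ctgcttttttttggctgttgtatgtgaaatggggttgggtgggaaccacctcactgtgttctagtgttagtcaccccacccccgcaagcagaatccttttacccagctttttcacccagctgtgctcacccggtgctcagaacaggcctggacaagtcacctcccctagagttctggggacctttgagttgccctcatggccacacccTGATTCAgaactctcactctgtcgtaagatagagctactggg
Nectin2: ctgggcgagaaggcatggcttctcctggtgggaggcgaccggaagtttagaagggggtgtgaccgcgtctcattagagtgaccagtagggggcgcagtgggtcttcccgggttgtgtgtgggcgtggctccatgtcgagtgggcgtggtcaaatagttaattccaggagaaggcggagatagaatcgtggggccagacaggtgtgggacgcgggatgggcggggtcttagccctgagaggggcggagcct
Cd274: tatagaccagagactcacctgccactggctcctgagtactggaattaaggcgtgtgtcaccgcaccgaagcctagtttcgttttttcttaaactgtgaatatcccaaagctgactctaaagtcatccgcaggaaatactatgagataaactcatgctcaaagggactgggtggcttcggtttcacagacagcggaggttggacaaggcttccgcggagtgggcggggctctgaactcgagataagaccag
Promoter windows were found for 8 of the 10 genes, the other two being Cd86 and Pvr. Both strands were searched. The AP-1 core TGANTCA was in the Cd80 window and in 6.75% of all 32851 windows of this length. The interferon-stimulated response element core, GAAA followed by GAAA 2 bases on, was in the Lgals9 window alone among the 8 and in 2.98% of all windows. No member window held the gamma-activated site core TTCNNNGAA (7.02% of all windows), the kappa B core, GGGA followed by TTCC 2 bases on (1.21%), or the p53 core, CATG repeated after 6 bases (0.49%). These matches describe the letters in the windows only.

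The libraries held 28.4 to 41 M counted reads, and no 2 tumors of a group agreed within sampling noise. Library codes fell into an earlier set (1 vehicle, 2 KW6002, 2 cisplatin and 3 cotreatment tumors) and a later set (4, 3, 3 and 2 tumors), and a number of results below are also given within a set. The labels do not say what the codes stand for. Among markers of the labelled tissue, the keratins Krt8 and Krt18 were abundant (95.2 to 215 and 224 to 378 CPM, counts per M reads after scaling), whereas Epcam had 0 to 5 counts and the alveolar gene Sftpc 0 to 1 count per tumor. KW6002 replicate 1 stood apart: its 5 B cell markers summed to 55.4 CPM against 3.5 to 6.39 in the other 19 tumors, and its 7 T and natural killer cell markers summed to 24.8 CPM against 1.35 to 9.03. The ligands and gene lists were therefore also compared with the KW6002 group without this tumor, and for the gene lists these fits were chosen after the data were seen. In bulk tumor RNA, fewer cells that express a gene and less of its RNA per cell cannot be told apart, and this applies to every ligand below.

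Cd80 encodes B7-1, a ligand of activated antigen-presenting cells (chr16, 38455561 to 38496335, plus strand, mm10). Its level in the vehicle tumors was 7.7, 9.39, 6.04, 7.51 and 6.03 CPM in replicates 1 to 5. After KW6002 it was 9.61, 7, 9.34, 6.92 and 6.98 CPM. The highest of these 10 tumors without cisplatin had 9.61 CPM. The cisplatin tumors had 19.5, 25.8, 26.1, 20.5 and 20.7 CPM, and the cotreatment tumors 21.1, 18.4, 19.1, 24.6 and 17.1 CPM. Every tumor that received cisplatin thus lay above every tumor that did not. In reads, this was 548 to 1018 counts per tumor with cisplatin and 185 to 309 without.

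Group levels of Cd80 were 7.34 ± 1.39 CPM (SD, n = 5) with vehicle, 7.97 ± 1.38 with KW6002, 22.5 ± 3.17 with cisplatin and 20 ± 2.93 with cotreatment. The cisplatin to vehicle ratio of 3.07, a log2 fold change of 1.62 (95% interval 1.33 to 1.91), is the value Cd80 was chosen on and is given as a description with no test. The same holds for cotreatment against vehicle (2.73-fold, log2 1.45), KW6002 against vehicle (1.09-fold, log2 0.12) and cotreatment against cisplatin (log2 -0.17, 95% interval -0.45 to 0.11), since each shares tumors with that contrast. The comparison of cotreatment with KW6002 gave a log2 fold change of 1.33 (SE 0.14, 95% interval 1.04 to 1.62, adjusted p = 7.58e-07, edgeR's quasi-likelihood test with Benjamini-Hochberg adjustment over all genes tested). This comparison shares no tumor with cisplatin against vehicle, but its spread was estimated over all 20 tumors. Earlier results of these data were known when Cd80 was chosen, so the test is not independent of that choice. The difference was larger than the spread between tumors. It was 1.41 without KW6002 replicate 1 (adjusted p = 1.82e-06), 1.23 within the earlier library codes and 1.44 within the later ones (adjusted p = 0.000971 and 0.00178).

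**Figure D1:**
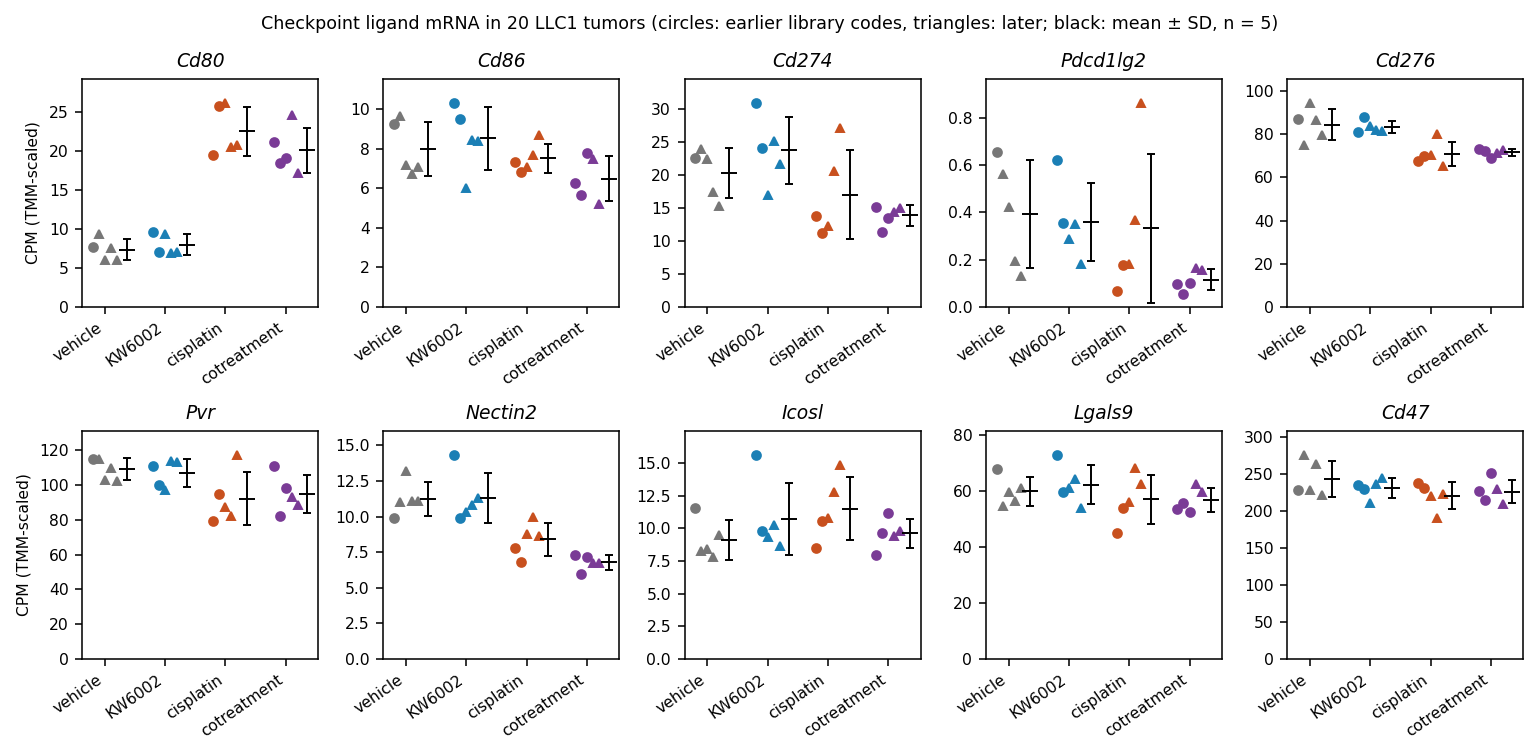
Level of each of the 10 ligands in every tumor (CPM on a linear axis from 0, one point per tumor, replicates 1 to 5 from left to right; circles, earlier library codes; triangles, later), with the mean ± SD of the 5 tumors of a group in black. The 10 tumors given cisplatin lay at 17.1 to 26.1 CPM of Cd80 and the 10 others at 6.03 to 9.61 CPM, whereas the groups of the other ligands overlapped or lay lower with cisplatin.

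Cd86 encodes B7-2, which shares the receptors CD28 and CTLA-4 with CD80, and it did not follow Cd80. The Cd86 level was 9.26, 9.67, 7.18, 6.72 and 7.08 CPM in the vehicle tumors and 7.31, 6.83, 7.08, 7.7 and 8.7 CPM in the cisplatin tumors. After KW6002 it was 10.3, 9.48, 6.01, 8.42 and 8.39 CPM, and after cotreatment 6.29, 5.68, 7.78, 7.49 and 5.21 CPM. These groups overlapped in every comparison. Cotreated tumors were nevertheless called lower than KW6002-treated tumors (log2 fold change -0.39, 95% interval -0.69 to -0.10, adjusted p = 0.0374). The call was lost without any one of KW6002 replicates 1, 2, 4 and 5 or cotreatment replicates 1, 2 and 5 (adjusted p = 0.112, 0.0914, 0.0624, 0.0537, 0.0668, 0.102 and 0.107 in that order), and within the later library codes (-0.25, adjusted p = 0.49), but not within the earlier ones (-0.59, adjusted p = 0.023). Against vehicle, Cd86 had log2 fold changes of -0.08 after cisplatin (adjusted p = 0.733) and -0.30 after cotreatment (adjusted p = 0.113).

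The ratio of Cd80 to Cd86 CPM describes this divergence within each tumor and does not depend on library scaling. It was 0.923 ± 0.123 (SD, n = 5) in vehicle tumors and 0.975 ± 0.33 in KW6002-treated tumors. It was 3.04 ± 0.649 after cisplatin and 3.12 ± 0.377 after cotreatment. No tumor without cisplatin exceeded 1.55, and no tumor with cisplatin was under 2.38. The ratio carries the values on which Cd80 was chosen, so it was not tested.

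Icosl, the ligand of the T cell costimulator ICOS, was not called in any comparison of the 20 tumors. Its level ranged from 7.79 to 11.6 CPM with vehicle, 8.64 to 15.6 with KW6002, 8.52 to 14.9 with cisplatin and 8 to 11.2 with cotreatment, and the groups overlapped. The cisplatin to vehicle log2 fold change was 0.34 (95% interval 0.01 to 0.67, adjusted p = 0.154). Within the later library codes it was 0.61 (adjusted p = 0.00494), where the 3 cisplatin tumors had 10.8 to 14.9 CPM and the 4 vehicle tumors 7.79 to 9.46 CPM. The 2 earlier cisplatin tumors had 8.52 and 10.6 CPM, beside 11.6 CPM in the single earlier vehicle tumor.

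Nectin2 encodes nectin-2, a ligand of CD226, TIGIT and PVRIG (chr7, 19716644 to 19750483, minus strand, mm10), and it was lower with cisplatin. Vehicle tumors had 9.88, 11, 13.2, 11.1 and 11.1 CPM and KW6002-treated tumors 14.3, 9.87, 10.3, 10.8 and 11.3 CPM. Cisplatin tumors had 7.78, 6.83, 8.77, 10 and 8.61 CPM. Cotreatment tumors had 7.32, 5.98, 7.13, 6.77 and 6.77 CPM. All 5 cotreated tumors lay under all tumors of the vehicle and KW6002 groups, while the cisplatin group overlapped those groups through 1 tumor, replicate 4.

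The log2 fold change of Nectin2 was -0.73 after cotreatment relative to vehicle (95% interval -0.96 to -0.49, adjusted p = 4.95e-05) and -0.73 relative to KW6002 (95% interval -0.97 to -0.50, adjusted p = 4.69e-05). In both cases the mean level was 1.66-fold higher in the tumors without cisplatin. After cisplatin alone it was -0.42 relative to vehicle (95% interval -0.65 to -0.19, adjusted p = 0.013). All 3 calls held when any single tumor was left out and within the later library codes, where the values were -0.76, -0.66 and -0.33 (adjusted p = 0.00159, 0.0066 and 0.04). Without KW6002 replicate 1, the value against KW6002 was -0.64 (adjusted p = 0.000166), and within the earlier codes it was -0.83 (adjusted p = 0.00783). Cotreatment and cisplatin differed by -0.31 (95% interval -0.54 to -0.07, adjusted p = 0.107), which was called in 1 case only, without cisplatin replicate 2, the lowest of its group (-0.37, adjusted p = 0.0448).

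Pvr, the other nectin-family ligand among the 10, was not called in the fit of all 20 tumors. Its level was 109 ± 6.09 CPM (SD, n = 5) with vehicle, 107 ± 7.69 with KW6002, 92.1 ± 15 with cisplatin and 94.5 ± 10.8 with cotreatment. The cisplatin tumors ranged most widely, from 79.4 to 117 CPM. Its log2 fold changes against vehicle were -0.24 after cisplatin (adjusted p = 0.0712) and -0.21 after cotreatment (adjusted p = 0.0829), and the groups overlapped. Without cisplatin replicate 5, which had the 117 CPM, the value for cisplatin was -0.34 and passed the test (adjusted p = 0.00557).

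Cd274, encoding PD-L1 (chr19, 29367455 to 29388095, plus strand, mm10), was lower after cotreatment than after KW6002. Vehicle tumors had 22.5, 23.9, 22.4, 17.3 and 15.3 CPM, and KW6002-treated tumors 30.8, 24.1, 16.9, 25.1 and 21.6 CPM. Cotreated tumors had 15.1, 11.3, 13.5, 14.4 and 14.9 CPM, all under the lowest tumor of both groups without cisplatin. The cisplatin group was split: replicates 1 to 3 had 13.7, 11.2 and 12.3 CPM, whereas replicates 4 and 5 had 20.5 and 27.1 CPM. The log2 fold change of cotreatment against KW6002 was -0.78 (95% interval -1.22 to -0.33, adjusted p = 0.00755), and -0.66 without KW6002 replicate 1 (adjusted p = 0.0259). It was -1.05 within the earlier library codes (adjusted p = 0.00129) and -0.52 within the later ones, where it was not called (adjusted p = 0.308).

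Cd274 was also called lower after cotreatment than with vehicle (log2 fold change -0.55, 95% interval -0.99 to -0.11, adjusted p = 0.0487), close to the threshold. This call was lost in 13 of 20 fits that left out 1 tumor, namely vehicle replicates 1, 2 and 3, KW6002 replicates 2, 4 and 5, cisplatin replicates 1 and 4 and all 5 cotreatment replicates, with adjusted p of 0.0564 to 0.126. Within the later library codes it was -0.41 (adjusted p = 0.379). Cisplatin and vehicle differed by -0.25 (95% interval -0.69 to 0.18, adjusted p = 0.433).

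Pdcd1lg2, encoding PD-L2, was the scarcest of the 10 ligands, with 2 to 30 counts per tumor. Its level was 0.656, 0.563, 0.424, 0.193 and 0.13 CPM in vehicle tumors and 0.622, 0.355, 0.285, 0.352 and 0.181 CPM in KW6002-treated tumors. It was 0.0676, 0.178, 0.182, 0.368 and 0.861 CPM in cisplatin tumors. Cotreated tumors, at 0.0979, 0.0551, 0.102, 0.165 and 0.156 CPM, lay under all KW6002-treated tumors and overlapped the vehicle group through its lowest tumor. As with Cd274, the highest values among the cisplatin tumors were those of replicates 4 and 5.

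The log2 fold change of Pdcd1lg2 was -1.62 for cotreatment against KW6002 (95% interval -2.89 to -0.42, adjusted p = 0.0352) and -1.73 against vehicle (95% interval -2.99 to -0.53, adjusted p = 0.0249). The call against KW6002 was lost without KW6002 replicates 1, 2 or 4 or cotreatment replicates 1, 2 or 3 (adjusted p = 0.11, 0.0544, 0.0549, 0.0679, 0.0899 and 0.0658). The call against vehicle was lost without vehicle replicates 1 or 2 or cotreatment replicates 1, 2 or 3 (adjusted p = 0.078, 0.0616, 0.0507, 0.068 and 0.0501). Within the later library codes the values were -0.75 and -0.97, neither of them called (adjusted p = 0.58 and 0.391). Within the earlier codes the value against KW6002 was -2.48 and called (adjusted p = 0.0107). An antisense gene, A930007I19Rik, overlaps Pdcd1lg2 and had up to 73 counts in a tumor. Whether counting used strand is not stated in the sources, so reads of the pair may not be separated. The antisense genes over Cd274 and Nectin2 had at most 2 counts.

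Cd276, encoding B7-H3, was slightly lower with cisplatin, by less than the fold limit used for a call (0.32 on the log2 scale). It ranged from 75.2 to 94.4 CPM with vehicle, 81.1 to 88.1 with KW6002, 65.4 to 80.2 with cisplatin and 69 to 73.1 with cotreatment. The log2 fold change was -0.26 for cisplatin against vehicle (adjusted p = 0.00524), -0.24 for cotreatment against vehicle (adjusted p = 0.00337) and -0.22 for cotreatment against KW6002 (adjusted p = 0.0069). The cotreatment group did not overlap the vehicle or the KW6002 group. Within the later library codes the values were -0.20, -0.20 and -0.18, and none passed the adjusted p threshold (adjusted p = 0.099, 0.172 and 0.266). Within the earlier codes the value against KW6002 was -0.24 (adjusted p = 0.0235).

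Lgals9, encoding galectin-9, and Cd47, encoding the ligand of SIRP alpha, showed the smallest differences. Lgals9 ranged from 45 to 72.6 CPM over the 20 tumors and its log2 fold changes from -0.13 to 0.06 over the 5 pairwise comparisons. Cd47 ranged from 191 to 275 CPM and its log2 fold changes from -0.14 to 0.04. The 95% interval for Cd47 after cisplatin against vehicle was -0.29 to 0.01, and for Lgals9 -0.26 to 0.13.

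Levels between genes were compared per exon length, as RPKM (reads per kilobase of exon per M scaled reads). In vehicle tumors Cd47 was highest at 38.7 ± 3.81 RPKM (SD, n = 5), followed by Lgals9 (28), Cd276 (23.1) and Pvr (17.8), and then by Cd274 (5.6), Nectin2 (3.22), Cd86 (2.18), Cd80 (1.98), Icosl (1.97) and Pdcd1lg2 (0.201). The tumors of Lgals9 and Cd276 overlapped, as did those of Cd86, Cd80 and Icosl, so these neighbours were not separated beyond their spread. With cisplatin Cd80 was rank 5 of the 10 at 6.09 ± 0.856 RPKM, above Cd274 (4.69), with overlapping tumors. With cotreatment it was again rank 5 at 5.41 ± 0.791 RPKM, and its lowest tumor (4.62) was above the highest of Cd274 (4.17). By mean, Cd47 remained first and Pdcd1lg2 last in every group, though the tumors of Cd47 and Lgals9 overlapped with KW6002 and with cisplatin.

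**Figure D2:**
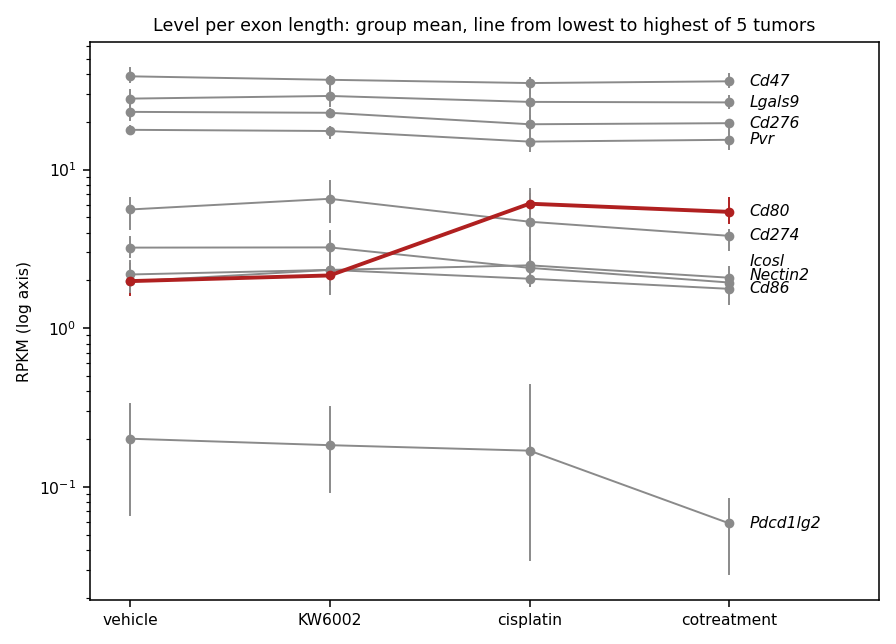
Mean level per exon length (RPKM, log axis) of the 10 ligands in the 4 treatment groups, with a vertical line from the lowest to the highest of 5 tumors; Cd80 is in red and connecting lines only guide the eye. Cd80 lay among Cd86 and Icosl near 2 RPKM without cisplatin and at 6.09 and 5.41 RPKM with it, and the means of the 4 most abundant ligands had the same order in all groups, with overlap of some neighbours.

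Counts of called ligands are set beside the share of all 16665 genes called in the same comparison, a call needing an adjusted p under 0.05 and a log2 fold change of at least 0.32 in size. For cisplatin against vehicle, 1 of 10 ligands was called higher (6.01% of all genes) and 1 lower (4.57%), a count that includes the gene chosen on it. For cotreatment against vehicle it was 1 higher (13.1% of all genes) and 3 lower (10.4%), the higher one being Cd80, whose value there is a description that shares the vehicle tumors. For cotreatment against KW6002 it was 1 higher (12.6% of all genes) and 4 lower (10.7%). Leaving out a single tumor lost up to 2 of these calls, as given above. The comparisons against vehicle share the vehicle tumors, and those with cotreatment share the cotreatment tumors, so they are not independent. The median log2 fold change of the 10 ligands was -0.18 for cisplatin against vehicle, -0.22 for cotreatment against vehicle and -0.20 for cotreatment against KW6002, with medians over all genes of 0, -0.016 and -0.012.

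No ligand was called after KW6002 alone. Their log2 fold changes against vehicle ran from -0.10 to 0.24, DESeq2 called 0 of all genes, and edgeR called 0 (0%), with 339 genes at an edgeR unadjusted p under 0.05. No ligand was among those 339. Cotreatment against cisplatin likewise called 0 of 10 ligands, with 4% of all genes called. Those were 667 genes, and leaving out 1 tumor gave 289 to 1013. Within the later library codes it was 1 gene and within the earlier ones 322. At an unadjusted p under 0.05 there were 2 ligands, Nectin2 (log2 -0.31) and Pdcd1lg2 (log2 -1.51), beside 3883 of all 16665 genes. With 1 tumor left out the value of Pdcd1lg2 ran from -1.75 to -0.78. Within the earlier codes it was -0.59 and within the later ones -1.53. Intervals were wide for the scarce gene: that of Pdcd1lg2 ran from -2.78 to -0.30 and that of Cd274 from -0.74 to 0.14. The interaction, which compares what KW6002 did in cisplatin-treated mice with what it did in the others, was called for 0 of 10 ligands and for 0.066% of all genes. DESeq2 called no ligand there either. Icosl was the single ligand with an unadjusted p under 0.05 for the interaction, beside 2034 of all 16665 genes (log2 -0.50, 95% interval -0.97 to -0.03, edgeR adjusted p = 0.375).

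**Figure D3:**
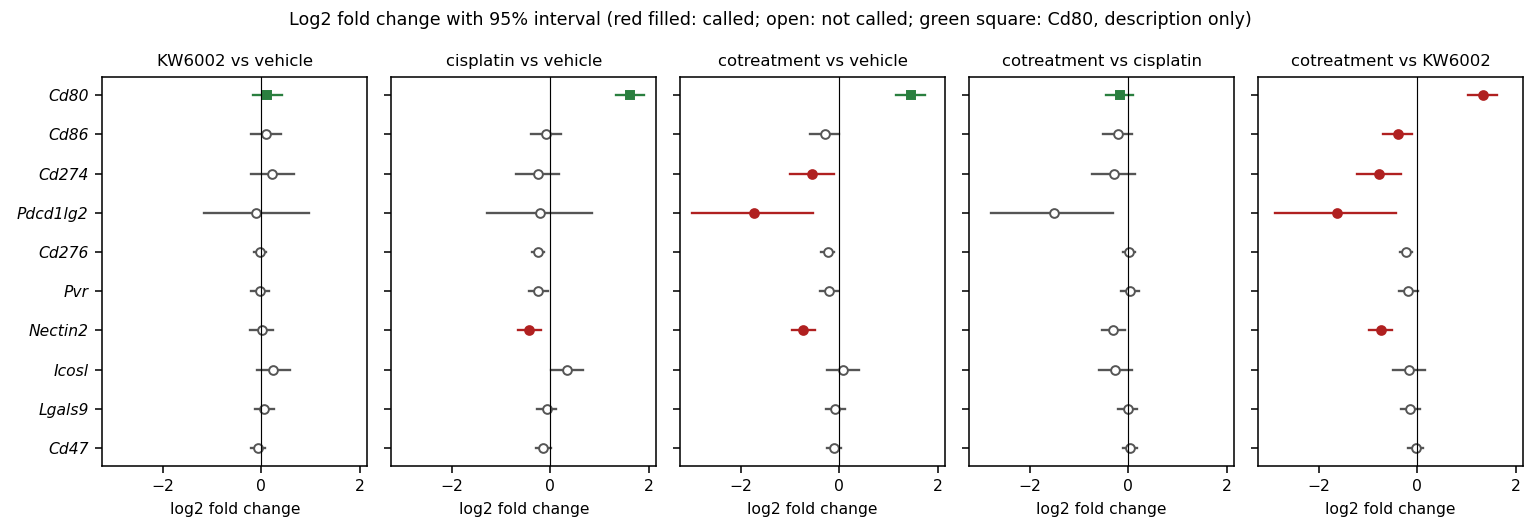
Log2 fold change (x axis) of each ligand in 5 comparisons, with its 95% interval from edgeR (5 tumors per group). Filled red circles were called, open circles were not, and green squares mark Cd80 where its value is a description that supports no call; Nectin2 was called lower in the 3 comparisons of a cisplatin-treated with a cisplatin-free group, and Cd80 was called higher in the 1 comparison where it was tested, cotreatment against KW6002.

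All 12 receptors and partners of the ligands that were listed could be tested. The shares of all genes called higher and lower were 6.01% and 4.57% for cisplatin against vehicle and 13.1% and 10.4% for cotreatment against vehicle. Between cotreatment and cisplatin 4% of all genes were called. After cisplatin relative to vehicle, 1 was higher and 0 lower: Tigit, the inhibitory receptor of PVR and nectin-2, at 5.14 ± 1.34 CPM against 3.28 ± 0.326 (log2 0.65, adjusted p = 0.0099), with no overlap between the groups. In the later library codes Tigit was at 0.39 and not called (adjusted p = 0.104), and the receptors called higher were Havcr2 (0.53, adjusted p = 0.0244) and Sirpa (0.46, adjusted p = 0.00172). After cotreatment relative to vehicle, Havcr2, encoding the galectin-9 receptor TIM-3, was higher (log2 0.44, adjusted p = 0.0221) and Icos, the receptor of ICOSL, lower (log2 -1.61, adjusted p = 0.0437), a call that was lost in the later library codes (-2.06, adjusted p = 0.0813). Relative to KW6002, cotreated tumors had 5 of 12 receptors lower and 1 higher, in the comparison that called 10.7% of all genes lower and 12.6% higher. The lower ones were the T and natural killer cell receptors Ctla4 (-1.95), Pdcd1 (-1.72), Icos (-2.30), Cd226 (-1.83) and Cd96 (-1.15), all at mean levels under 1 CPM, and the higher one was Havcr2 (0.50, adjusted p = 0.0115). These calls rested in part on KW6002 replicate 1, the tumor with the highest T and natural killer cell marker sum. Without it 3 of the 5 were called lower, Pdcd1 (-1.74, adjusted p = 0.0224), Icos (-1.62, adjusted p = 0.0251) and Cd226 (-1.35, adjusted p = 0.0414), whereas Ctla4 (-1.69, adjusted p = 0.0742) and Cd96 (-0.49, adjusted p = 0.353) were not. Within the later library codes Pdcd1 alone was called lower and Havcr2 higher. Within the earlier codes 8 of the 12 receptors could be tested and the genes called lower were Sirpa and Thbs1. None was called higher there, so that the Havcr2 call was lost. The part of the marker levels in these values was not tested. Sirpa, the receptor of CD47 on myeloid cells, was lower after cotreatment than after cisplatin (110 ± 10.6 against 156 ± 21.1 CPM, log2 -0.50, adjusted p = 0.00396), with overlapping groups, and it was called neither within the later library codes (-0.49, adjusted p = 0.131) nor within the earlier ones (-0.43, adjusted p = 0.0858). Cd28 was not called in any comparison. Tigit, also a T and natural killer cell gene, was not called between cotreatment and KW6002 (log2 0.17).

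Of 17 further costimulatory or inhibitory ligands and their partners, 14 were tested, since Vtcn1, Cd70 and Fgl1 had too few counts. In each of the 3 comparisons of a cisplatin-treated with a cisplatin-free group, 1 of 14 was called higher and 3 lower. The shares of all genes called higher and lower were 6.01% and 4.57% for cisplatin against vehicle, 13.1% and 10.4% for cotreatment against vehicle, and 12.6% and 10.7% for cotreatment against KW6002. In the later library codes, cisplatin against vehicle called 4 higher (Nectin4, Tnfsf4, Tnfsf14 and Lgals3) and 3 lower, beside 1550 and 1193 of all 17222 genes. The higher one in all 20 tumors was Tnfsf4, which encodes OX40 ligand: 0.362 ± 0.112 CPM with vehicle, 0.357 ± 0.14 with KW6002, 1.03 ± 0.366 with cisplatin and 0.985 ± 0.11 with cotreatment. Its log2 fold change was 1.51 after cisplatin against vehicle (adjusted p = 0.00132) and 1.45 after cotreatment against KW6002 (adjusted p = 0.000544), and the groups did not overlap. The lower ones were Cd40, a costimulatory receptor of antigen-presenting cells, Tnfrsf14, which encodes HVEM, and Cd200, whose product binds an inhibitory receptor of myeloid cells. Cd40 was at 6.02 ± 0.9 CPM with vehicle and 6.44 ± 0.603 with KW6002, and at 3.36 ± 0.745 with cisplatin and 2.98 ± 0.763 with cotreatment. Its log2 fold changes were -0.84 (cisplatin against vehicle, adjusted p = 0.00232) and -1.11 (cotreatment against KW6002, adjusted p = 5.5e-05). Without KW6002 replicate 1, Cd200 was no longer called in cotreatment against KW6002 (-0.51, adjusted p = 0.0599), nor was it within the earlier or the later library codes (adjusted p = 0.0938 and 0.0709), while Tnfsf4, Cd40 and Tnfrsf14 were called in all 3 of these fits. The median over the 14 genes was -0.05 after cisplatin against vehicle and -0.16 after cotreatment against KW6002.

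Of 12 genes known to act on ligand expression or on the ligand proteins, 0 were called after cisplatin relative to vehicle with edgeR. That comparison called 6.01% of all genes higher and 4.57% lower. Irf1 (log2 -0.27, adjusted p = 0.0107), Jak2 (-0.29, adjusted p = 0.00902) and Ifngr2 (-0.25, adjusted p = 0.0162) were lower there by less than the fold limit. After cotreatment relative to vehicle 4 were lower and none higher: Irf1, the interferon regulatory factor that acts on Cd274, Jak2, Ifngr2 and Relb. That comparison called 10.4% of all genes lower and 13.1% higher. Relative to KW6002, 3 were lower, beside 10.7% of all genes: Irf1 (-0.68, adjusted p = 5.1e-07), Relb (-0.64, adjusted p = 0.00134) and Ifngr2 (-0.39, adjusted p = 0.000169), while Jak2 (-0.32, adjusted p = 0.00196) stayed just inside the fold limit. Without KW6002 replicate 1, Jak2 was called as well (-0.33, adjusted p = 0.00349). Ifngr2 was not called within the later library codes against vehicle (-0.20, adjusted p = 0.132) or KW6002 (-0.24, adjusted p = 0.0964). Irf1 was at 95.7 ± 3.88 CPM with vehicle, 99.7 ± 6.36 with KW6002, 79.6 ± 7.63 with cisplatin and 62.3 ± 5.59 with cotreatment. It was the single gene of the list that was called between cotreatment and cisplatin (log2 -0.35, adjusted p = 0.00519), beside 4% of all genes, and those groups did not overlap. This call held within the earlier library codes (-0.39, adjusted p = 0.0456) and was lost within the later ones (-0.30, adjusted p = 0.261). Cmtm6, whose product stabilizes PD-L1 at the cell surface, was not called in any comparison.

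**Figure D4:**
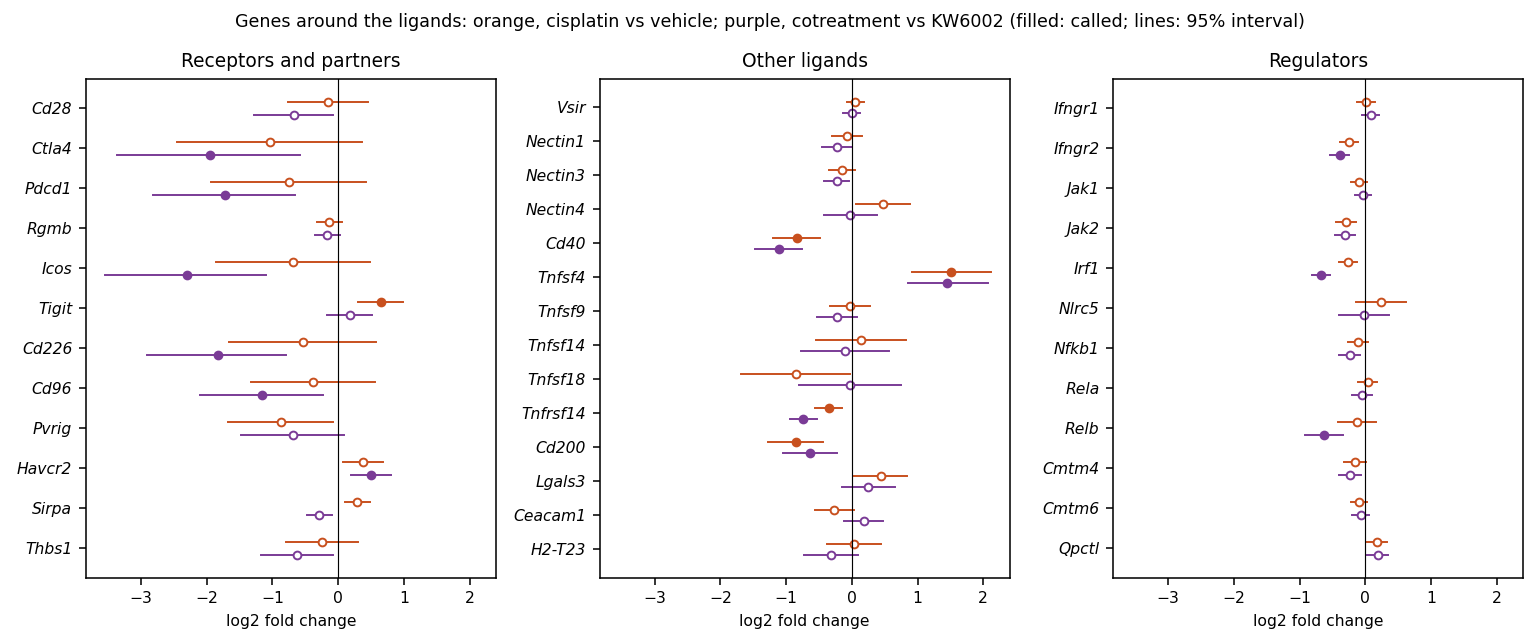
Log2 fold change with 95% interval for the tested receptors and partners, further ligands and regulators; orange, cisplatin against vehicle; purple, cotreatment against KW6002; filled points were called. Tnfsf4 lies to the right of 0 and Cd40, Tnfrsf14 and Cd200 to the left in both comparisons, and Irf1, Relb and Ifngr2 were called in the second comparison; Irf1 and Ifngr2 were lower by less than the fold limit in the first, and the difference between the 2 comparisons was not tested.

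Marker lists were examined for the cell types that carry these ligands and for the carcinoma cells. The 5 carcinoma and lung epithelium markers present summed to 390 to 424 CPM with vehicle, 322 to 433 with KW6002, 479 to 595 with cisplatin and 467 to 547 with cotreatment, so that, as with Cd80, every tumor given cisplatin lay above every tumor that was not. Most of each sum was the keratins Krt8 and Krt18. Krt8, 1 of the 3 markers of this list that could be tested, was called higher in cisplatin against vehicle (log2 0.53, adjusted p = 0.000288), cotreatment against vehicle (0.57, adjusted p = 3.12e-05) and cotreatment against KW6002 (0.63, adjusted p = 1.14e-05). In the same order, these comparisons called 6.01%, 13.1% and 12.6% of all genes higher and 4.57%, 10.4% and 10.7% lower. Krt18 was not called in these comparisons with all 20 tumors. It was called higher in cisplatin against vehicle within the later library codes and in cotreatment against KW6002 within the earlier ones. The part of carcinoma cell RNA in the Cd80 level was not tested. The proliferation markers Mki67 and Top2a summed to 925 to 1130, 813 to 1030, 848 to 1020 and 698 to 880 CPM in the same order of groups. Both were called lower after cotreatment than with vehicle (log2 -0.60 and -0.35), and Mki67 was called lower than after KW6002 (-0.43). Mki67 alone was called in the later library codes against vehicle (-0.40) and neither against KW6002.

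The 8 macrophage markers summed to 1180 to 1650 CPM with vehicle, 1220 to 1530 with KW6002, 1280 to 2310 with cisplatin and 1300 to 1710 with cotreatment, overlapping in every case. The cisplatin group was split by library code: its 3 later tumors had 2000, 2310 and 1830 CPM, above every tumor without cisplatin, and its 2 earlier ones 1280 and 1450 CPM. Within the later codes 6 of 8 macrophage markers were called higher after cisplatin than with vehicle, beside 1550 of all 17222 genes. With all 20 tumors, cisplatin against vehicle called 6.01% of all genes higher and 4.57% lower. These shares were 13.1% and 10.4% for cotreatment against vehicle, and 12.6% and 10.7% for cotreatment against KW6002. In all 20 tumors 1 of the 8, Mrc1, was called higher after cisplatin relative to vehicle (log2 0.64, adjusted p = 0.00695) and 1 of 4 pan-leukocyte markers, Laptm5, as well (0.56, adjusted p = 0.000652), whereas Ptprc was lower (-0.35, adjusted p = 0.0231), though not called in the later codes (-0.29, adjusted p = 0.0546). After cotreatment 2 of 4 pan-leukocyte markers were called lower than with vehicle and than after KW6002, Ptprc (-0.55 and -0.87) and Coro1a (-0.51 and -0.71), and the 4 summed to 275 to 325 CPM against 292 to 335 with vehicle and 336 to 387 with KW6002, the last without overlap. Cd86, Cd274 and Pdcd1lg2 were called lower in that comparison with KW6002, and the part of the leukocyte markers in their values was not tested. Ptprc was, in the later library codes, called lower in both comparisons, Coro1a in neither, and Laptm5 higher in both. After cotreatment, Mrc1 (0.46) and Cd163 (0.96) were called higher and Csf1r lower (-0.32) than with vehicle, and relative to KW6002 Mrc1 was higher (0.49) and Csf1r lower (-0.43). In the later codes Cd68 and Cd163 were called higher than with vehicle and 0 of 8 were called against KW6002, and in the earlier codes Adgre1 and Csf1r were called lower than after KW6002, so that Mrc1 was not called after cotreatment in any of these fits.

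The 8 dendritic cell markers summed to 140 to 231 CPM with vehicle, 162 to 178 with KW6002, 119 to 178 with cisplatin and 104 to 122 with cotreatment. Most of each sum was Fscn1, an actin-bundling gene that other cells also express (141 ± 29.7 CPM with vehicle, 86.8 ± 4.75 with cotreatment). After cisplatin relative to vehicle 1 of 8 was called higher and 0 lower: Flt3, at 7.68 against 5.46 CPM (log2 0.49, adjusted p = 0.0432). After cotreatment relative to cisplatin Flt3 (-0.84, adjusted p = 0.00582) and Fscn1 (-0.43, adjusted p = 0.0443) were called lower, but 0 of 8 within either set of library codes, and Fscn1 was not called without KW6002 replicate 1 (adjusted p = 0.0527). In cotreated tumors 6 of 8 were called lower than after KW6002 and 5 of 8 lower than with vehicle, beside 10.7% and 10.4% of all genes. These were Cd209a, Fscn1 and, against KW6002, Itgax, beside Xcr1 (log2 -2.30 and -1.81), Clec9a (-1.91 and -1.58) and Ccr7 (-1.59 and -1.16). Flt3 and Zbtb46, also in the list, were called in neither comparison. The count against KW6002 was 6 of 8 without KW6002 replicate 1 and 5 of 8 within the earlier library codes, but 0 of 8 within the later codes, where 1 of 8, Fscn1, was lower than with vehicle. Within the earlier codes, cotreatment against KW6002 called 1695 of all 16709 genes lower. In cotreatment against KW6002 Cd80 was higher, whereas Cd86, Cd274, Pdcd1lg2 and Nectin2 were called lower, in the direction of these dendritic cell markers, and the part of the marker change in their values was not tested.

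The 7 T and natural killer cell markers summed to 1.68 to 6.42 CPM with vehicle, 2.84 to 24.8 with KW6002, 1.35 to 7.85 with cisplatin and 1.43 to 3.6 with cotreatment. Of the 7, 5 were called lower after cotreatment than after KW6002, 3 of them without KW6002 replicate 1 (Cd3e, Cd3g and Cd8a, with Cd3d and Cd4 lost), 2 within the later library codes and 1 of the 6 that could be tested within the earlier ones. None was called against vehicle in all 20 tumors, and within the later codes Klrb1c was called higher after cisplatin than with vehicle. Cd3e reached 0 counts in 1 cisplatin tumor and Cd8a in 1 cotreatment tumor. The 6 neutrophil markers summed to 44.7 to 147 CPM in the 10 tumors without cisplatin and to 13.6 to 67.3 in the 10 with it, and the 5 endothelial markers to 109 to 182 and 59.3 to 94.8 CPM. Of 5 neutrophil markers tested, S100a8 and Cxcr2 were called lower after cisplatin than with vehicle, and S100a8, S100a9, Csf3r and Cxcr2 after cotreatment than with vehicle or KW6002. In the later library codes these counts were 0, 1 (Csf3r) and 0, and within the earlier ones 5 of 5 were lower than after KW6002. All 5 endothelial markers were called lower in each of the 3 comparisons of a cisplatin-treated with a cisplatin-free group, with 4, 5 and 5 called within the later library codes and 3 against KW6002 within the earlier ones. The 5 B cell markers summed to 3.5 to 6.39 CPM in all tumors but KW6002 replicate 1, and Cd79b was called lower after cotreatment than after KW6002 (log2 -2.20, adjusted p = 0.0362) with that tumor and not without it. The 5 fibroblast markers summed to 2140 to 3860 CPM over the 20 tumors. Lum was called lower in each of the 3 comparisons with a cisplatin-free group (log2 -0.63, -0.58 and -0.50), Pdgfra lower after cisplatin than with vehicle (-0.42) and Dcn higher after cotreatment than after KW6002 (0.37). Against KW6002, the Lum call was lost within the earlier library codes and the Dcn call within the later ones. Without KW6002 replicate 1, the carcinoma, proliferation, pan-leukocyte, macrophage, neutrophil, endothelial and fibroblast lists had the same genes called against KW6002 as with it, and Havcr2 was still called (0.43, adjusted p = 0.0369), though not within the earlier library codes. The skeletal muscle markers summed to 2.82 to 988 CPM, with 0 of 5 muscle markers and 0 of 4 fat markers called by edgeR in any comparison.

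**Figure D5:**
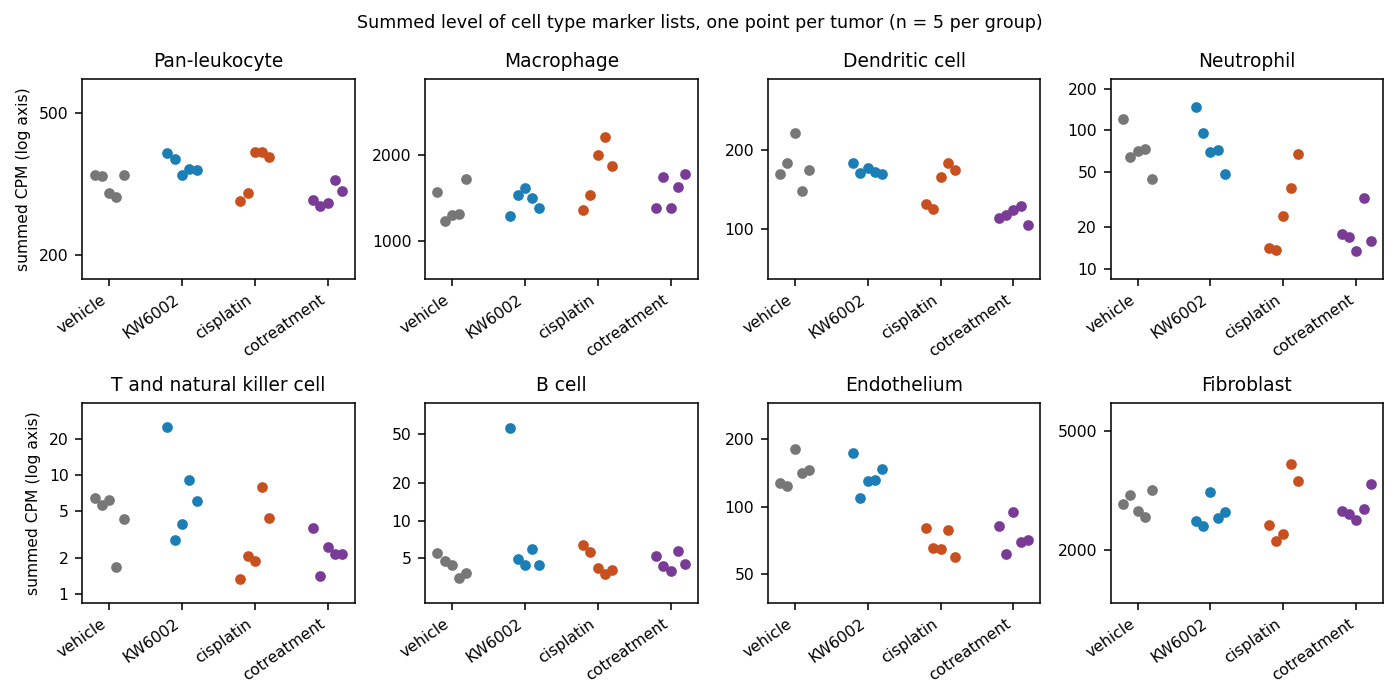
Summed CPM of 8 cell type marker lists (log axis, own range in each panel), one point per tumor. The cotreatment group has the lowest dendritic cell sums by group median (113 CPM, mostly Fscn1), both cisplatin groups have the lower endothelial sums, and KW6002 replicate 1 stands apart in the B cell and T and natural killer cell panels.

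Within treatment groups, ligands varied together to different degrees. Correlations are Pearson's r of log2 CPM over 20 tumors after the mean of each group was subtracted, and they describe points that share library and tumor composition. Cd274 and Pdcd1lg2, which are neighbours on chr19, had r = 0.84. Cd86 correlated with Itgax, a dendritic cell and macrophage integrin (0.66), and with the leukocyte gene Ptprc (0.69). Its r was 0.24 for the dendritic cell gene Flt3, and -0.21 and -0.16 for the macrophage genes Adgre1 and Csf1r. Cd274 correlated with Irf1 (0.56), as did Pvr (0.60), Pdcd1lg2 (0.40) and Cd86 (0.39). The other ligands had r of -0.205 to 0.28 with Irf1. Icosl and Lgals9 had r = 0.79. Cd80 had r of -0.28 to 0.29 for the other 9 ligands, 0.32 for Ptprc, 0.10 for Itgax, 0.42 for the T cell gene Cd3e, and -0.03 and -0.28 for the macrophage genes Adgre1 and Csf1r.

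The genes whose pattern over the 20 tumors was most like that of Cd80, among tested genes with a mean of at least 50 counts, were Sytl1 (r = 0.97), Serpine2 (0.97), Ephx1 (0.95), Sesn2 (0.94) and Mdm2 (0.94), by Pearson's r of log2 CPM. Mdm2, which encodes the ubiquitin ligase of p53, was at 161 ± 12.9 CPM with vehicle, 153 ± 5.2 with KW6002, 260 ± 40.5 with cisplatin and 261 ± 21.8 with cotreatment. Serpine2, a serine protease inhibitor, was at 17.1 ± 2.89, 15 ± 1.52, 62.4 ± 14.1 and 58.5 ± 9.35 CPM in the same order. Like Cd80, these genes differ mainly between tumors with and without cisplatin. After group means were subtracted, the 5 genes most like Cd80 were Ifitm3 (0.79), Ccdc137 (0.75), Areg (0.74), Anxa8 (0.74) and Ppif (0.71), none of which was among the first 5.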

How the data were processed

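The authors prepared stranded poly(A) libraries from the tumors, sequenced single-end reads of 50 bases, aligned them to mm10 with STAR, and deposited raw counts of uniquely aligned reads per Ensembl gene made with HTSeq-count 0.6.1p1 in union mode. Per the labels, bcl2fastq 2.17.1.14 made the reads. The strand option is not given in the sources used here. The reads had no molecular identifiers, so counting precision covers sampling of reads only.

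Symbols, positions and exon lengths came from GENCODE M21 (GRCm38), which matched 35142 of 35226 genes. Counts of all 20 tumors were fitted with edgeR 4.0.16 in R 4.3.3 (filterByExpr, TMM scaling, 4 group means, robust quasi-likelihood test, two-sided). The 16665 genes retained hold 99.9% of counts. P values were adjusted by the Benjamini-Hochberg method over all genes tested, and a call needed an adjusted p under 0.05 and a log2 fold change of at least 0.32 in size. CPM are counts per M TMM-scaled reads, and log2 CPM used a prior count of 2. DESeq2 1.42.0 and other scalings, filters, sample sets and terms were alternatives. P-values measure the spread between these tumors. The fit was checked on simulated data with the same spread for every gene, without library code sets or an outlying tumor.

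Members and gene lists were chosen with earlier results of these data known. Named genes are all 10 ligands, every gene of the 3 pathway lists (receptors, further ligands, regulators) called in a comparison described where at most 6 were, and the 5 genes most correlated with Cd80. Promoters came from RefSeq (GRCm38.p6). One gene of the regulator list is not reported here.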

Additional observations from a re-analysis of the deposited data

Results flagged for a closer look

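Among the 40 sets of 5 tumors examined (10 ligands in 4 groups), 1 tumor lay far from the others of its group. Icosl was at 15.6 CPM in KW6002 replicate 1, and the nearest of the other 4 KW6002-treated tumors had 10.3 CPM, a gap of 0.757 of the whole range of the group against a limit of 0.71 for 5 tumors. Chance alone marks about 1 in 20 such sets. The same tumor had the highest B cell and T and natural killer cell marker sums of the 20 tumors (55.4 and 24.8 CPM), and their part in its Icosl level was not tested.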

How the results depend on the processing

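Of 1213 values of single ligands under the alternatives, 1139 kept their direction and side of the threshold, 46 lost a call, 6 gained one and 22 changed sign, none of them a called value. Cd80 in cotreatment against KW6002 stayed between 1.23 and 1.44, and Nectin2 kept its calls against vehicle and KW6002 throughout. For cotreatment against vehicle, the number of ligands called fell from 4 to 2 with at least 10 counts in every tumor, which drops Pdcd1lg2 from the test and loses Cd274 (adjusted p = 0.0545), and to 2 within the later library codes. The Cd274 call against vehicle was lost in 7 of 10 alternatives other than leaving out a tumor (RLE and upper quartile scaling, no filter, at least 10 counts, the replicate block, library code as a term, and the later codes), with adjusted p up to 0.379. For cotreatment against KW6002 the number fell from 5 to 3 with only the groups compared and to 2 within the later codes. With the replicate number as a block (replicate block) it was 3, Cd86 and Pdcd1lg2 being lost. The numbers do not pair the tumors: residual correlations between tumors of the same number ran from -0.523 to 0.508, and 1 of 20 tumors correlated best with its own number. Leaving out 1 tumor gave 2 to 4 calls against vehicle, 3 to 5 against KW6002 and 0 to 1 against cisplatin. Signs changed within the later codes for cisplatin against vehicle in Cd86 (0.05), Cd274 (0.04), Pdcd1lg2 (0.56) and Lgals9 (0.12), for cotreatment against vehicle in Lgals9 (0.10), against cisplatin in Pvr (-0.07) and against KW6002 in Icosl (0.04) and Lgals9 (0.04). Within the earlier codes, without the single vehicle tumor, they changed for cotreatment against cisplatin in Cd274 (0.09), Lgals9 (0.11) and Cd47 (-0.03). Leaving out 1 tumor gave -0.94 to 0.06 for Pdcd1lg2 and -0.13 to 0.02 for Lgals9 in cisplatin against vehicle, -0.01 to 0.06 for Cd47, -0.08 to 0.06 for Lgals9 and -0.03 to 0.14 for Pvr in cotreatment against cisplatin, and -0.23 to 0.01 for Icosl in cotreatment against KW6002. The causes were not tested. Both fits on library codes alone, and those of gene lists without KW6002 replicate 1, were chosen after the data were seen. Over all genes, the interaction called 11 genes with edgeR, 263 with DESeq2 and 0 with the replicate block. Leaving out 1 tumor gave 0 to 229 such genes, the most without cotreatment replicate 4. At 2 to 30 counts per tumor, depth limits Pdcd1lg2.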
